A study of Mus musculus with 22 samples.

Results

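Most genes of the developmental transcription factor families carried no called peak of acetylated histone H3 at their promoters in BcorΔE9-10 myeloid progenitors. Of 81 genes, 7 had an H3K27ac peak within 2.5 kb of a transcription start site (TSS) in at least 1 of 3 libraries, and 4 of them (Six5, Sox4, Sox12 and Nkx2-3) had one in every library. The other 74 had none. The 81 genes were taken by name and position alone: protein-coding genes on chromosomes 1 to 19 whose symbol is Sox, Tbx, Lhx, Dlx or Irx followed by a number or begins with Nkx, together with the family of Six5, Pax1 to Pax4, Pax6 to Pax9 and Gata4 to Gata6. They are 81 of 20722 protein-coding genes on these chromosomes and comprise 18 Sox, 14 Nkx, 12 Tbx, 8 Lhx, 8 Pax, 6 Dlx and 6 Irx genes, 6 genes of the Six5 family and 3 Gata genes.

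The families encode sequence-specific DNA-binding proteins that pattern the embryo. Sox proteins bind through an HMG box, Tbx proteins through a T-box, Pax proteins through a paired domain, Gata proteins through zinc fingers, and Lhx, Dlx, Irx and Nkx proteins and those of the Six5 family through homeodomains. In cells outside their own lineage many of these genes sit in CpG-rich chromatin held silent by the Polycomb group complexes. BCOR, the corepressor altered in these mice, belongs to a variant Polycomb repressive complex. Acetylation of lysine 27 of histone H3 (H3K27ac) marks active promoters and enhancers, and the same lysine is methylated by Polycomb, so a given H3 tail carries one mark or the other. Marks deposited by Polycomb were not analysed here.

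The 3 libraries came from KL cells, the lineage-negative, cKit+ and Sca1- myeloid progenitors of bone marrow, sorted 20 weeks after tamoxifen. The animals were C57BL/6 mice of genotype scl-Cre-ERT +; Bcorfl/y, so they were male with a single floxed Bcor allele, and they received 1 mg of tamoxifen on each of 5 days at 3 to 6 months of age. Cre is driven by the Scl stem cell enhancer, active in haematopoietic stem cells. Cre removes exons 9 and 10 of Bcor, which leaves a frameshift rather than a full deletion of the gene. Per the methods of the study the BcorΔE9-10 cells came from 3 mice, and nothing else in the labels separates the libraries. The series lists 22 samples, of which the 3 H3K27ac libraries were used and 19 were not analysed here. No BcorWT H3K27ac library was analysed, so nothing below compares genotypes.

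Depth, recovered from the peak lists under the peak caller's standard mouse genome size, was 18.04, 18.92 and 19.26 M reads in replicates 1, 2 and 3, and the lists held 23410, 25963 and 23758 peaks. Exons 9 and 10 of Bcor carried no peak in any library, so the lists cannot show the deletion itself. Of 7 marker genes of myeloid progenitors, 6 had a TSS peak in all 3 libraries, among them Kit and Mpo, and Elane had one in 1 library. None of 8 markers of stromal, endothelial and other non-blood cells had a TSS peak in any library. Mature myeloid (1 of 5), B lymphoid (1 of 3) and T lymphoid (0 of 3) markers had at most 1 gene with a peak, each in 1 library, while 2 of 4 erythroid markers had one in 1 or 2 libraries and 2 of 3 megakaryocyte markers in all 3.

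Promoter sequences of 5 genes are given first, as examples of the DNA before the start sites searched for peaks. Each is the 250 bases directly before the start of the first annotated protein-coding transcript, read 5′ to 3′ on the coding strand from RefSeq's GRCm38 sequence, with every CpG in capitals. Six5, Sox4 and Nkx2-3 are the genes with the highest mean fold enrichment of their family among those with a peak in all 3 libraries.
Six5, chr7:19094344-19094593, plus strand: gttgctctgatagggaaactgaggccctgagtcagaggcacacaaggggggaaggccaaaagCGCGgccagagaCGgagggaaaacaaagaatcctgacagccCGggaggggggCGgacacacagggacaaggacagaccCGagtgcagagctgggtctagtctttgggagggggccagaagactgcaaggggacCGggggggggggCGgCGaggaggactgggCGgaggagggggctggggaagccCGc
Sox4, chr13:28953714-28953963, minus strand: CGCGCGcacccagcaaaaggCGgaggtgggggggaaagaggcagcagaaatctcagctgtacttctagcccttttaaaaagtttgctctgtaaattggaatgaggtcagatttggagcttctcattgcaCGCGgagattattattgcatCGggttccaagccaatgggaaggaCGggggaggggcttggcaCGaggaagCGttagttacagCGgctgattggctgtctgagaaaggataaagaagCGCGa
Nkx2-3, chr19:43612075-43612324, plus strand: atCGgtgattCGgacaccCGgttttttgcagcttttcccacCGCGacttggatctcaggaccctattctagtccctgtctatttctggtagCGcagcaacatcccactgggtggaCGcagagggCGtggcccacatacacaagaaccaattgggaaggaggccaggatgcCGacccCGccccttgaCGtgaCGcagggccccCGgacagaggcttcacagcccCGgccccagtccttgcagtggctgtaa
Six2 and Sox2 had the highest CpG content of their families among genes with no TSS peak in any library.
Six2, chr17:85688275-85688524, minus strand: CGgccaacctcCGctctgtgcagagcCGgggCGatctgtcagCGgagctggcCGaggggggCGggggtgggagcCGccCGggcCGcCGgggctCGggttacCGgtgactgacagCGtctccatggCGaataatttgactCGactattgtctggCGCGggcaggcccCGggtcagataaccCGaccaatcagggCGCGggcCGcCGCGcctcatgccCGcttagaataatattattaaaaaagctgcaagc
Sox2, chr3:34650155-34650404, plus strand: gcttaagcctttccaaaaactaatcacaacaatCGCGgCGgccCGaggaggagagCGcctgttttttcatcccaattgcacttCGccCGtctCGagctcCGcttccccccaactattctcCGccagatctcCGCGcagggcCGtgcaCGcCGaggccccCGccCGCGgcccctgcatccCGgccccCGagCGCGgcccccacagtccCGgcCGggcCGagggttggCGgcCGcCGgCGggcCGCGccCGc
The printed stretches hold 11 CpGs at Six5, 13 at Sox4 and 14 at Nkx2-3, against 26 at Six2 and 32 at Sox2. The examples without a peak were chosen for their CpGs, so this order is a description of the choice. None of the 5 windows overlaps an annotated exon. No called peak reached the Sox4 stretch in any library, and a peak reached the Nkx2-3 stretch in replicate 1 only.

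To place the families against the genome, the share of genes with a TSS peak was counted in each library. Replicate 1 had a TSS peak at 5 of the 81 genes (6.17%), where 46.8% of all protein-coding genes had one. Replicate 2 had 4 (4.94%), against 48% of all genes. Replicate 3 had 6 (7.41%), against 47.9% of all genes. In every library the families thus lay far under the genome, and the 3 values of either share spread over less than 3 percentage points. The mean share was 6.17% ± 1.23 (SD, n = 3) for the families and 47.5% ± 0.639 for all genes. The difference was −41.4 percentage points ± 1.43 and negative in 3 of 3 libraries (exact two-sided sign-flip permutation test over libraries, p = 0.25, the smallest p that 3 libraries allow).

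The same contrast held under each rule on how many libraries must show the peak. A TSS peak in at least 1 library was found at 7 genes (8.64%), against 50.5% of all genes. A peak in at least 2 libraries was found at 4 (4.94%), against 47.5%, and a peak in all 3 libraries at the same 4, against 44.6%. No member had a peak in exactly 2 libraries, and 3 had one in a single library. The number of start sites searched per gene was similar, a mean of 2.26 for the families and 2.51 for all genes. In bulk chromatin a peak carried by few of the sorted cells and a weak peak carried by all of them cannot be told apart, and the smallest called summits held 8, 8 and 9 fragments, so acetylation under that level is not represented.

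**Figure D1:**
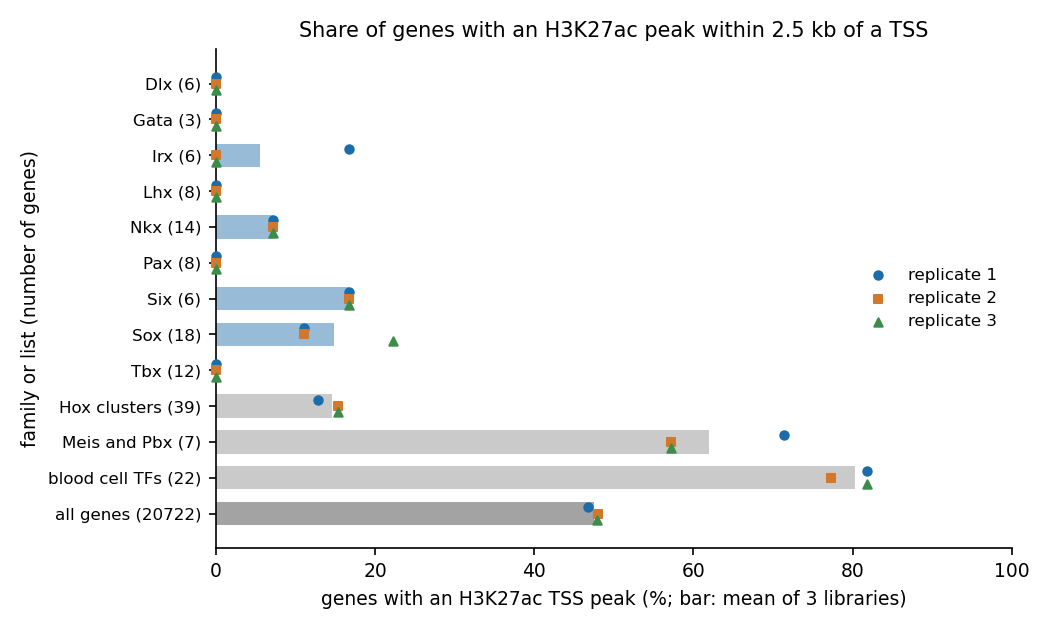
Share of genes with an H3K27ac peak within 2.5 kb of a TSS (%, horizontal axis) for each developmental family (blue bars), 3 comparison lists (light grey) and all protein-coding genes of chromosomes 1 to 19 (dark grey), with the number of genes in parentheses. Bars are means of 3 libraries and symbols are the libraries; 5 families stand at 0 in each library and all genes at 46.8% to 48%.

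By family, the members with a TSS peak in these 3 lists were Sox, Nkx and Irx genes and Six5. Of the 18 Sox genes, 2 had a TSS peak in replicate 1, 2 in replicate 2 and 4 in replicate 3. The 14 Nkx genes had 1 in every library, as did the 6 genes of the Six5 family, and the 6 Irx genes had 1 in replicate 1 only. No peak was called at any of the 37 genes of the other 5 families. These are the 6 Dlx genes (Dlx1 to Dlx6), which act in forebrain, jaw and limb, the 8 Lhx genes (Lhx1 to Lhx6, Lhx8 and Lhx9), with roles in neurons, kidney and pituitary, and 8 Pax genes (Pax1 to Pax4 and Pax6 to Pax9), which act in eye, kidney, muscle and thymus. The 12 Tbx genes (Tbx1 to Tbx6, Tbx10, Tbx15 and Tbx18 to Tbx21) act in heart and limb and, for Tbx21, in T cells, and Gata4, Gata5 and Gata6 act in heart and endoderm.

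Within these families the genes without a peak were the majority. They were the other 5 genes of the Six5 family, among them Six2 and Six3 of kidney and forebrain, Irx1 to Irx4 and Irx6 among the Irx genes, and 13 Nkx genes, among them Nkx2-1 of lung and thyroid, Nkx2-2 of pancreas and neural tube and Nkx2-5 of heart. Among the Sox genes 14 had none: Sox1, Sox2, Sox5 to Sox11, Sox13, Sox14, Sox17, Sox18 and Sox21. These include Sox2 of pluripotent and neural stem cells, Sox9 of cartilage and testis, and Sox17 of endoderm and fetal blood stem cells.

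The height of the peaks was described next. The fold enrichment used here is the peak caller's ratio of fragments at a summit to the local background of the same library, and a gene takes the highest value among its TSS peaks. Six5, a homeobox factor whose gene adjoins Dmpk, had TSS folds of 8.88, 9.59 and 12.0 in replicates 1, 2 and 3. Sox4, an HMG-box factor of the SoxC group that acts in lymphoid progenitors and many embryonic tissues, had 6.60, 6.96 and 9.40. Sox12, another SoxC gene, had 3.30, 3.75 and 9.34. The values of Six5 and Sox4 were highest in replicate 3, as was the median of all genes, while Sox12 was low in replicates 1 and 2 and level with Sox4 in replicate 3. Nkx2-3, a homeobox factor of spleen and gut mesenchyme, had 3.37, 3.97 and 3.20, low in every library.

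The remaining 3 genes had a peak in 1 library each. Irx5, a homeobox gene of heart and retina, had a TSS fold of 3.47 in replicate 1. Sox15, an HMG-box gene of muscle precursors and placenta, had 3.91 in replicate 3, and Sox30, a gene of spermatid development, had 3.58 in replicate 3. All 3 values lay within the range of Nkx2-3 and were the only TSS peaks of these genes.

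Six5 had the highest mean of the 4 genes found in every library, 10.1 ± 1.63 (SD, n = 3), followed by Sox4 with 7.65 ± 1.52, Sox12 with 5.46 ± 3.37 and Nkx2-3 with 3.51 ± 0.403. Six5 exceeded Sox4 in 3 of 3 libraries by 2.5 ± 0.194 on the fold scale, and Sox4 exceeded Sox12 in 3 of 3 by 2.19 ± 1.84. The order was taken from these same values, so it is a description with no test. Sox12 exceeded Nkx2-3 in 1 of 3 libraries only, by a mean of 1.95 ± 3.63, a difference smaller than its spread. Without replicate 3 the mean of Sox12 was 3.52, near that of Nkx2-3.

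Against all genes with a TSS peak, Six5 stood in the middle and the others lower. The median TSS fold over all such genes was 9.13, 9.38 and 10.8 in the 3 libraries, a mean of 9.77 ± 0.909. Six5 lay at percentiles 48.2, 51.4 and 56.9 of these genes, and Sox4 at 30.4, 31.3 and 40.9. Sox12 lay at percentiles 1.21, 4.34 and 40.6, so its place depended on the library. Nkx2-3 lay at percentiles 1.54, 5.37 and 0.474, and Irx5, Sox15 and Sox30 at 2.49, 2.36 and 1.19 in their single library.

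**Figure D2:**
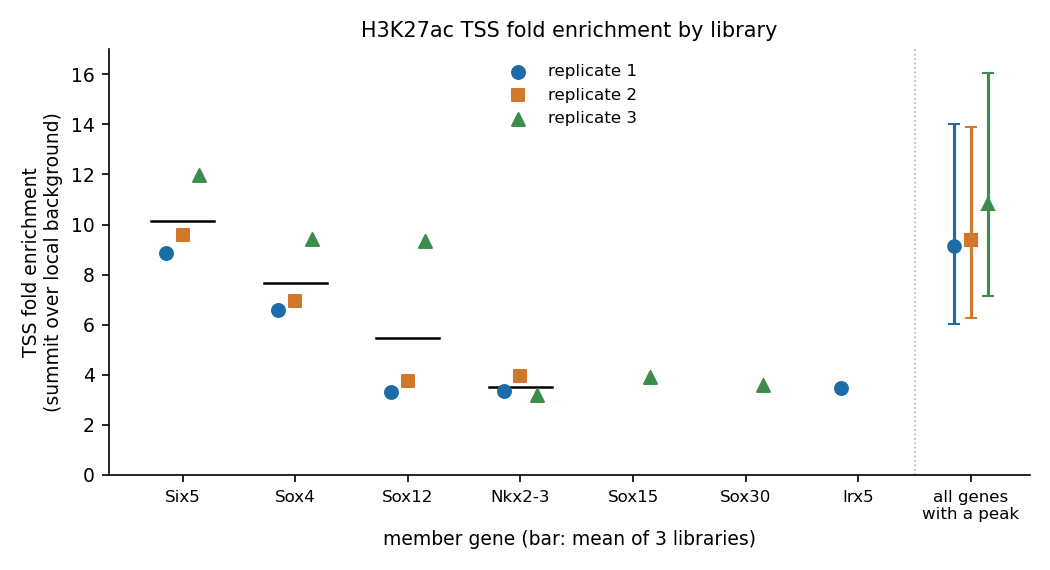
TSS fold enrichment (vertical axis, summit over local background, no unit) of the 7 genes with an H3K27ac TSS peak, one symbol per library, with a bar at the mean of genes found in all 3; at the right, the median and quartiles of all protein-coding genes with a peak. Six5 sits at the median of all genes, and Nkx2-3, Sox15, Sox30 and Irx5 lie between 3.20 and 3.97.

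The median over the members with a peak was 3.47 in replicate 1 (5 genes), 5.46 in replicate 2 (4 genes) and 6.62 in replicate 3 (6 genes). Divided by the median of all genes in the same library, this gave 0.380, 0.583 and 0.612, a mean ratio of 0.525 ± 0.127 (SD, n = 3) that was under 1 in 3 of 3 libraries (exact two-sided sign-flip permutation test of the log2 ratio, p = 0.25, the smallest 3 libraries allow). The ratio describes only members that passed the peak caller's threshold. Among peaks with a −log10 q of at least 5 it was 0.813, since Nkx2-3, Irx5, Sox15 and Sox30 then had no peak, Sox12 kept one in replicate 3 only, and 2 members (Six5 and Sox4) rather than 4 had one in at least 2 libraries.

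The depth behind each summit was small for the weak peaks. The best summit of Six5 rested on 25, 28 and 38 fragments in replicates 1, 2 and 3, that of Sox4 on 27, 31 and 43, and that of Sox12 on 18, 14 and 37. Nkx2-3 had 12, 11 and 10 fragments, Irx5 had 19, Sox15 had 11 and Sox30 had 10, where the smallest called summits had 8, 8 and 9. The typical gene with a TSS peak had more, with medians of 33, 35 and 41 fragments at its best summit. The local background at Sox12 was 4.77, 3.00 and 3.00 fragments in the 3 libraries. The rise in its fold from replicate 2 to replicate 3 thus lay in the fragments. From replicate 1 to replicate 2 the fragments and the background both fell while the fold rose from 3.30 to 3.75. No error was computed for these fragment numbers, and duplicates had been removed without molecular identifiers.

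The places of the peaks also separated the genes. At Six5 a single peak of 1217, 1345 and 1312 bp crossed the TSS in the 3 libraries, with 3 summits in each, and the merged region was chr7:19094139-19095483. It overlapped untranslated and coding exon sequence of Six5, and its edge lay 1843 to 1934 bp from a start site of Dmpk. At Sox12 a narrow peak of 221, 214 and 331 bp lay at the TSS, with summits 127, 28 and 30 bp downstream, and the merged region chr2:152397817-152398172 overlapped its untranslated exon sequence. The best peaks of all genes with one had median widths of 650, 690 and 711.5 bp, so Six5 was wider and Sox12 narrower than the typical promoter peak.

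Sox4, a gene with a single exon, carried its acetylation in the gene body. The nearest peak began 395, 260 and 85 bp downstream of the TSS in replicates 1, 2 and 3, and the best summits lay 1119, 589 and 588 bp downstream. The merged region, chr13:28951346-28953628, spanned coding and untranslated sequence of Sox4 and an exon of the long noncoding gene Gm26735. Replicate 1 had this stretch as 1 peak of 1636 bp, while replicates 2 and 3 had it broken into 3 and 2 peaks.

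The peaks counted for Nkx2-3 did not fall at a common place. In replicate 1 the peak crossed the TSS, with its summit 203 bp downstream. In replicate 2 the peak began 2442 bp downstream and overlapped only the end of the window, with its summit outside it at 2613 bp. With a summit required inside the window, or a window of 1 kb, Nkx2-3 had a peak in 2 libraries. In replicate 3 there were 2 peaks, with summits at −1129 bp and 2163 bp from the TSS. The first of them, which gives the fold of 3.20, lay 922 bp from Nkx2-3 and nearer, at 509 bp, to a start site of the long noncoding gene Gm20467. A shared merged region, chr19:43614396-43614966 in the coding exon, was thus present only in replicates 2 and 3, with folds of 3.97 and 2.75. When the same merged region was required in all 3 libraries, Six5, Sox4 and Sox12 were left, that is 3 of the 81 genes, a requirement chosen after the positions had been seen.

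**Figure D3:**
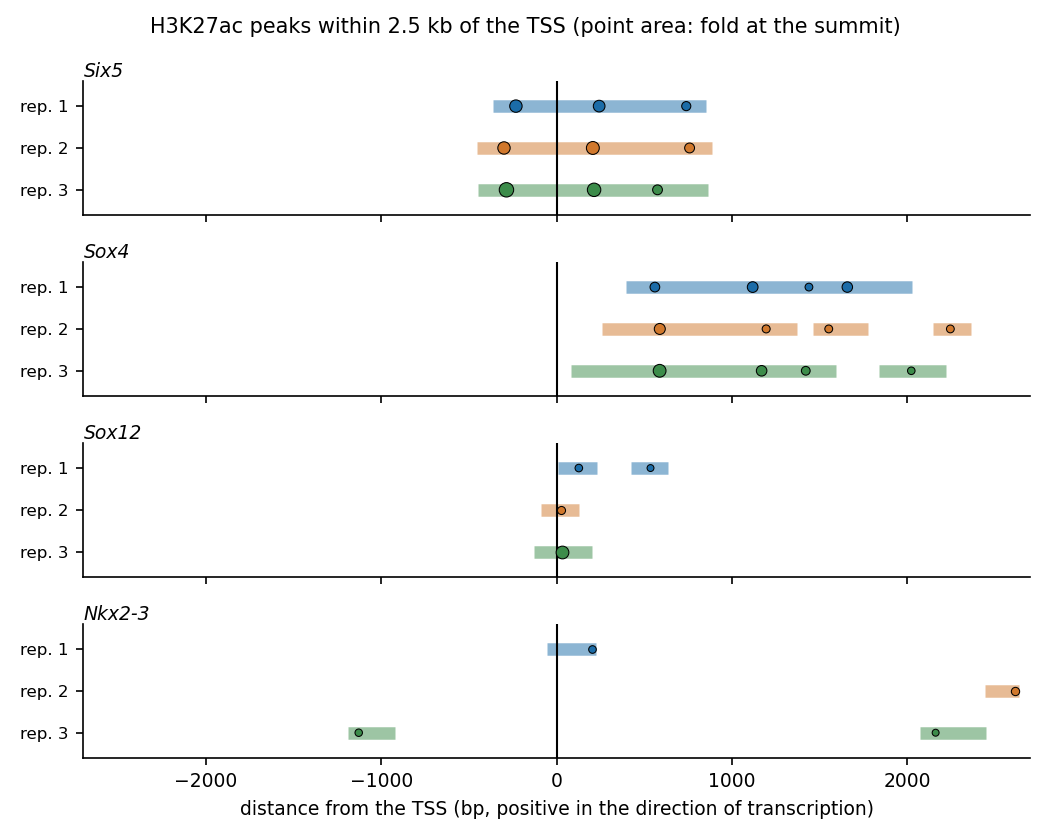
H3K27ac peaks (bars) and summits (points, area proportional to fold) within 2.5 kb of the TSS of the 4 genes found in all libraries, by distance from the TSS in bp, one row per library. Peaks of Six5, Sox4 and Sox12 overlap between the 3 libraries, and those of Nkx2-3 lie at the TSS in replicate 1, 2442 bp or more downstream in replicate 2 and on both sides in replicate 3.

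Of the 3 genes with a peak in 1 library, Irx5 and Sox15 had another start site close by. The Irx5 peak, chr8:92355722-92356176, lay 1449 bp upstream of Irx5 and overlapped an exon and a start site of Crnde, a long noncoding gene that runs in the opposite direction, so the peak is nearer to Crnde than to Irx5. The Sox15 peak, chr11:69654643-69655044, ended 270 bp upstream of Sox15 and 2323 bp from a start site of Fxr2. The Sox30 peak, chr11:45980312-45980525, began 2 bp downstream of the Sox30 TSS with no other start site within 2.5 kb. In the libraries without these peaks the nearest peak was 498 kb from Irx5 in both, 6.75 and 7.01 kb from Sox15, and 35.4 and 24.8 kb from Sox30.

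CpG content of the promoters was compared because CpG-rich promoters are widely acetylated in most cells. The ratio of observed to expected CpG was taken over 300 bases, from 250 before to 50 after the first protein-coding start, and a promoter at 0.6 or more was called CpG-rich. Of the 81 family promoters, 43 were CpG-rich (53.1%), and of all 20722 promoters 9636 were (46.5%). Median ratios were 0.627 and 0.553. At this threshold a low CpG content was not shared by all members, as 38 of the 81 lay below it. Whether CpG content bears on the absence of peaks was not tested.

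The share with a TSS peak differed between CpG classes over all genes, and the 4 members with a peak lay in both classes. Of all genes with a CpG-rich promoter, 75.8% had a TSS peak in at least 2 libraries, whereas 2 of the 43 family members with one did (4.65%), Sox4 and Sox12. Of genes below 0.6, 22.9% had a peak, and among the 38 members below it 2 did (5.26%), Six5 and Nkx2-3. The share over all genes ran from 10.7% in the class under 0.2 to 86.9% between 1.0 and 1.2, and 1 of 4 members in that upper class had a peak (Sox12). At a ratio of 0.8 to 1.0, 79.5% of 3969 genes and none of 10 members had one.

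**Figure D4:**
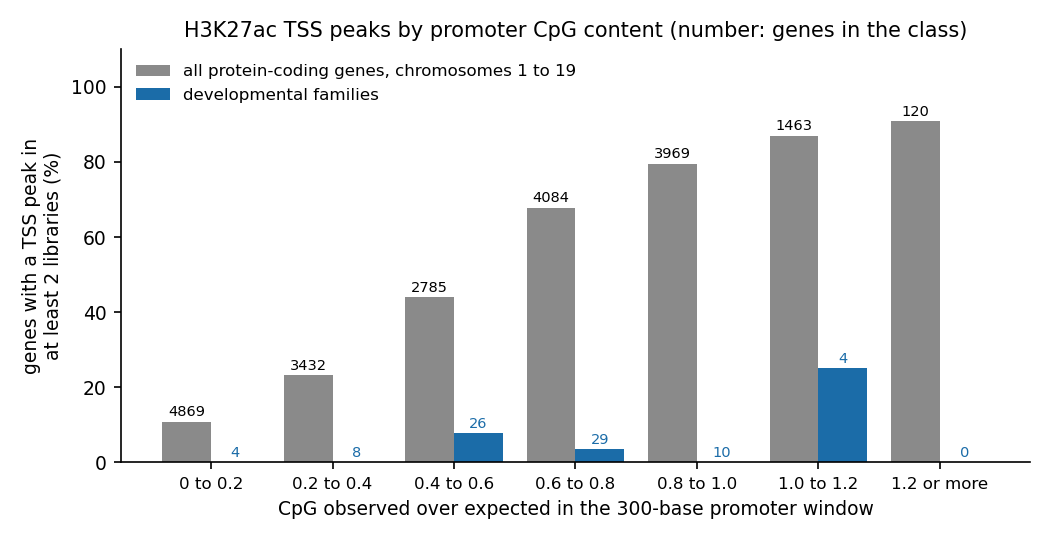
Genes with an H3K27ac TSS peak in at least 2 libraries (%, vertical axis) by class of CpG observed over expected in the promoter window, for all protein-coding genes of chromosomes 1 to 19 (grey) and the developmental families (blue), with the number of genes above each bar. The grey bars climb from 10.7% to 90.8%, and each blue bar rests on at most 2 genes with a peak.

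Short motifs were counted in the same windows on both strands. The GC box, GGGCGG, was found in 50 of the 81 family promoters (61.7%) and in 44.5% of all promoters. CGGAAG, the core of sites for ETS factors, was found in 9 (11.1%) against 20.5%. AGATAA, a core of GATA sites, was found in 9 (11.1%) against 9.83%. A GC box contains a CpG and so moves with CpG content, and a match is a description of the letters and says nothing of binding.

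The nearest acetylated site of any kind was then located for each gene. The median distance from a family gene's closest TSS to the nearest peak was 87.4, 87.1 and 92.7 kb in replicates 1, 2 and 3, where it was 7.54, 5.71 and 6.09 kb for all genes. Among genes with no TSS peak in any library the distance was 95.6 kb ± 2.99 (SD, n = 3) for the 74 family members and 87.8 kb ± 2.54 for 10255 genes, and these medians lay closer together than those of the full sets. Within the CpG-rich genes of this kind it was 117 kb ± 1.35 for 39 members and 65.5 kb ± 2.95 for 2081 genes. The library medians ran from 115 to 118 kb for the members and from 62.1 to 67.7 kb for the genes.

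The distances ran from 4.12 kb to 1321 kb among the 74 genes. The longest stretches without a peak were at Irx1, 1321 kb from the nearest peak on average, Sox11, at 873 kb, and Irx2, at 695 kb. Of the 74 genes, 31 were over 100 kb from the nearest peak in all 3 libraries. Within 10 kb in all 3 were 6 genes, namely Tbx6, Sox13, Tbx10, Sox18, Sox8 and Lhx1. The closest of them, Tbx6, a gene of presomitic mesoderm, lay just outside the window with a peak 4.12 to 4.17 kb away and beside Ypel3, whose own TSS is 4.27 kb away and had a peak in each library. At 4 of the 6 genes (Tbx6, Lhx1, Sox8 and Sox18) the nearest neighbouring gene had a TSS peak in at least 2 libraries. Over all genes the nearest neighbour had one in 50.7%. By mean distance over libraries, 54.3% of the 81 members and 76.3% of all genes lay within 100 kb of a peak. The counts of 31 and 6 were not made for all genes without a TSS peak. The median distance of those genes, 87.8 kb, was near the 95.6 kb of the 74 members, so the counts show no trait particular to the families.

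**Figure D5:**
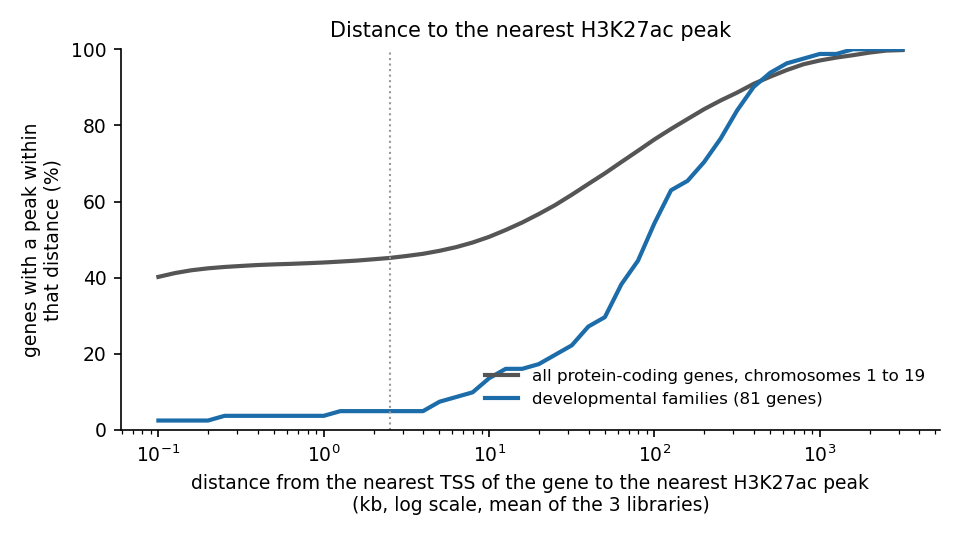
Cumulative share of genes (%, vertical axis) whose nearest H3K27ac peak lies within the distance on the horizontal axis (kb, log scale, mean of 3 libraries), for the 81 family genes (blue) and all protein-coding genes of chromosomes 1 to 19 (grey); the dotted line marks 2.5 kb. At 10 kb the curves stand at 13.6% and 50.7%, and at 398 kb at 90.1% and 90.9%.

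The surroundings of the families were described by the nearest neighbouring genes. Family members stood apart from other genes, with a median of 55.2 kb to the start of the nearest protein-coding neighbour against 18.6 kb over all genes, and 3 (3.70%) had a neighbour's start within 5 kb, against 20.9%. For 21 of the 81 the nearest neighbour was itself a member, as with Dlx1 and Dlx2. The nearest neighbour had a TSS peak in at least 2 libraries for 38 of the 81 (46.9%), where the neighbours of all genes had one in 50.7%. All 38 were among the 60 members whose neighbour was not a member (63.3% of these), so whether the share lies under or over that of all genes depends on which members are counted. Examples are Aatf beside Lhx1, Lhpp beside Nkx1-2 and Tcea2 beside Sox18.

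Acetylated regions away from any start site were each given to the protein-coding gene whose TSS lay nearest. Of 5236 distal regions found in at least 2 libraries, 13 had a family member as the closest gene, and these belonged to 6 members (7.41%), where 11.5% of all protein-coding genes were the closest gene of such a region. The order of these shares depended on the peak threshold: at a −log10 q of at least 5, 7 regions were left at 6 members (7.41%), against 5.80% of all genes. Within 100 kb of a TSS there were 6 regions at 5 members, against 10.9% of all genes. Sox4 had 5, Dlx2 had 3, Sox13 had 2, and Sox5, Sox6 and Tbx21 had 1 each. Sox4 was the only one with a TSS peak as well. The median fold of the 13 regions was 4.72 and that of all distal regions 4.45. Of the 13, 10 were found in all 3 libraries. That share was not computed for all distal regions, so it is not a trait of these 13.

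The Sox4 regions lay both near and far. The nearest, chr13:28958059-28958515, was 4.35 kb from the TSS, between genes, with folds of 3.16, 4.17 and 4.37 in replicates 1, 2 and 3. The highest, chr13:28832929-28834013, was 120 kb away with folds of 6.13, 5.31 and 5.20. It and the other 3, at 183, 195 and 336 kb, fell in introns of the long noncoding gene 2610307P16Rik. The nearest protein-coding neighbour of Sox4, Cdkal1, starts 521 kb from it, so Sox4 is the closest gene over a long interval, and assignment by distance does not show which gene a region acts on.

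Of the other 5 members, which had no TSS peak, Sox13 and Sox6 had a region inside the gene. The region in an intron of Sox13, a SoxD gene expressed in gamma delta T cells, was 5.95 kb from its TSS with folds of 4.44, 5.95 and 6.83. The region in an intron of Sox6, a SoxD gene of cartilage and of red cell maturation, was 46.2 kb from its TSS and was found in replicates 1 and 3, with folds of 7.90 and 6.21. Sox5, the third SoxD gene, had a region between genes 196 kb away with folds of 4.02, 6.00 and 6.15. Tbx21, which encodes T-bet, had one 11.6 kb away in replicates 2 and 3, with folds of 6.18 and 5.50.

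The 3 regions assigned to Dlx2, a forebrain homeobox gene, lay between genes at 51.9, 109 and 116 kb and were found in all 3 libraries. The one at 51.9 kb had folds of 3.92, 6.01 and 7.16. The fold at this region differed between libraries more than at the one at 109 kb, which had 3.76, 4.30 and 4.23.

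Finally, lists of other transcription factor genes were counted by the same rule of a TSS peak in at least 2 libraries. Of 39 Hox cluster genes, which are Polycomb targets in many tissues and include regulators of blood stem cells, 5 had one (12.8%): Hoxa3, Hoxa4, Hoxa7, Hoxa9 and Hoxb4. Of 7 Meis and Pbx genes, the homeobox partners of Hox proteins, 4 had one (57.1%): Meis1, Pbx2, Pbx3 and Pbx4. Of 22 transcription factors of blood cells 18 had one (81.8%), with none in any library at Gata1, Gata3, Gfi1b and Irf8. The developmental families, at 4.94%, stood lowest of these lists and under the 47.5% of all genes. Where a list had peaks, the median TSS fold averaged 6.94 ± 0.425 (SD over libraries, n = 3) for Hox, 5.31 ± 0.852 for Meis and Pbx and 8.33 ± 0.875 for blood factors, against 5.18 ± 1.60 for the developmental families.

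The Gata genes differed among themselves in the same lists. Gata2, of blood stem and progenitor cells, had TSS folds of 7.47, 4.75 and 8.39 in replicates 1, 2 and 3. Gata4, Gata5 and Gata6 had no TSS peak in any library, and neither did Gata1 of red cells and megakaryocytes nor Gata3 of T cells. The nearest peak was on average 35.1 kb from Gata4, 61.3 kb from Gata5 and 325 kb from Gata6.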

How the data were processed

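H3K27ac ChIP-seq of BcorΔE9-10 KL cells was examined in 3 libraries. Per the labels and methods, the authors mapped the reads to GRCm38 (Bowtie2), discarded duplicates and ran MACS2 2.1.1 on each library by itself. The control and settings used for calling are not given in the sources used here. The deposited lists give, for each summit, a fold enrichment (a ratio to local background, not scaled between libraries) and the −log10 of its p-value and q-value. The authors' fold and q were used as given, and the largest q was 0.0499.

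Members, lists and tests were chosen with earlier results of these data known. Deposited peaks of the autosomes and sex chromosomes were set against GENCODE M21, and coordinates count from 1. A TSS peak overlapped 2500 bp either side of the TSS of a protein-coding transcript. The 20722 background genes have at least 1 such transcript. Every member with a TSS peak was named with its values, and members without one by family. Overlapping peaks were merged into regions, and regions over 2500 bp from every annotated TSS were distal. Fragments at summits were solved from fold and p, which succeeded for 100% of summits within 0.002 on the −log10 scale. Tests were exact sign-flip permutations over 3 libraries. Motif and CpG counts used RefSeq GRCm38 sequence. The comparison lists were Hox cluster genes, Meis and Pbx genes and transcription factors of blood cells, with marker lists of progenitor, mature myeloid, B and T lymphoid, erythroid, megakaryocyte and non-blood cells. Alternatives were windows, start sites, peak thresholds, assignment rules, background, the CpG threshold and leaving out each library. Functions were tested on simulated data. One Pax gene was left out, and some genes are counted but not reported here by name. Python 3.11.15, pandas 2.3.3, numpy 2.4.6, scipy 1.17.1 and matplotlib 3.10.9 were used.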

Additional observations from a re-analysis of the deposited data

How the results depend on the processing

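Of 41 values recomputed for the counts, shares and ratios, 38 kept their call. For a count this meant a value within 1.5 times the reported one. For the shares and ratios tested it meant the same direction and side of the threshold. For the untested share of CpG-rich genes it meant a value within 0.692 points, the SD over libraries, of the reported 75.8%. With a smallest sign-flip p of 0.25, only a reversed direction could have changed the call of a tested share or ratio. The ratio of medians still ran from 0.442 to 0.813, and the other 3 values moved. With a −log10 q of at least 5, the members with a TSS peak in at least 2 libraries numbered 2 rather than 4, against 43.7% of all genes. The share of CpG-rich genes with a TSS peak was 80.3% at a CpG ratio of at least 0.75, where 1 of 24 members had one. It was 77.0% with the RefSeq promoter table, an alternative added after seeing the data, which held 56 of the 81 members. The difference in share between members and all genes lay between −41.8 and −40.5 points when each library was left out, and the ratio of medians between 0.481 and 0.598. The members with a peak in both remaining libraries numbered 4 each time, which had to follow because no member had a peak in exactly 2 libraries. The members closest to a distal region numbered 4 to 5. A window of 5 kb added Tbx6, and the annotated 5′ end or all transcripts added Sox5 to the members with a peak in at least 1 library. No paired analysis was possible because the libraries analysed form a single group. Depth limits the calls to summits of 8 or more fragments, and with 3 libraries no test could reach p under 0.25.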
